A study of Drosophila melanogaster with 6 samples.

Results

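The regions described here were the Su(H) binding sites called on the heterochromatin scaffolds and the unassigned sequence U of the fly genome. They comprised every peak on a release 5 sequence named U or ending in Het. They were chosen by the name of the sequence alone, without regard to width, score or spacing. They numbered 238 of the 4403 peaks in the list, or 5.41% (exact 95% binomial interval 4.76 to 6.11%, counting error only). U held 134 of them and the placed scaffolds 104, with 35 on 3LHet, 29 on 3RHet, 28 on 2RHet, 8 on XHet, 3 on 2LHet and 1 on YHet. The reference set was the 1606 peaks on the chromosome arms 2L, 3L, 3R and X. The remaining 2559 peaks, on Uextra, 2R, 4 and the mitochondrial genome, belong to neither set and enter only values given for the whole list.

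The list came from chromatin immunoprecipitation with sequencing (ChIP-seq) in Drosophila melanogaster embryos of the strain labelled Y cn bw sp. There were 3 libraries of Su(H) ChIP DNA and 3 of input DNA. All 6 libraries shared 1 genotype, which combines the alleles y[1] and oc[R3.2] with cn[1], bw[1], sp[1], Gr22b[1], Gr22d[1] and CG33964[R4.2]. It further carries lab[R4.2], LysC[1], MstProx[1], GstD5[1] and Rh6[1], and the sex was unknown. The stage is labelled 0-8, while the protocol text speaks of an 8-16 hours egg laying. ChIP used a rabbit polyclonal antibody raised against amino acids 259 to 594 of Su(H), on embryos fixed in 1.8% formaldehyde for 15 min. No value per library was at hand, so differences between sets of peaks could be set against no spread between replicates, and none was tested. The intervals given with medians are 95% order-statistic intervals over peaks, which treat peaks as independent. The binomial intervals of shares do the same.

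Su(H) is the DNA-binding factor through which Notch signalling reaches its target genes. It recruits co-repressors when Notch is silent and the Notch intracellular domain with co-activators when Notch is active. Heterochromatin is the compact, gene-poor and repeat-rich part of the genome, found around the centromeres and over most of the Y chromosome. The Het scaffolds are heterochromatin sequences that release 5 assigned to a chromosome. U strings together scaffolds that could not be assigned to any, so that neighbours on U may lie far apart in the genome.

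The placed scaffolds and U differed from the arms in different ways. Pooled over the placed scaffolds, peaks were wider by the median than those on the arms, with scores near those of the arms. A neighbour within 5 kb was found for 63.5% of placed peaks and 50.6% of arm peaks, but for 48.3% on 3RHet and 0 of 3 peaks on 2LHet. Without XHet the placed share was 60.4%, with an interval that overlapped that of the arms. The share over the whole list was 55.7%. After peaks no more than 1 kb apart were joined, the placed and arm shares were close, at 32% and 30.2%. Scores on U were above those of the arms, and its peaks lay no closer together. The median width was 428.5 bp on the placed scaffolds (interval 381 to 541), 397.5 bp on U (361 to 471) and 349 bp on the arms (334 to 362). The median of the peak caller's score, called the MACS score here and of unstated scale, was 14.22 on the placed scaffolds (13.24 to 17.13). It was 18.48 on U (16.14 to 20.07) and 13.52 on the arms (13.22 to 13.91). Over the whole list it was 16.18, within the interval of U. The intervals of the arms and of the placed scaffolds thus met for score and were apart for width, whereas those of U and the arms were apart for score and all but apart for width. Median widths by scaffold were 461.5 bp on 2RHet (325 to 750) and 381 bp on 3LHet (274 to 675). They were 430 bp on 3RHet (328 to 605) and 725.5 bp on XHet (255 to 1584). Each of these intervals overlapped that of the arms. Median scores were 12.91, 14.0, 15.48 and 27.01 in turn. Of their intervals, only that of XHet (15.71 to 123.98) was apart from that of the arms. 2LHet and YHet had too few peaks for an interval.

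**Figure D1:**
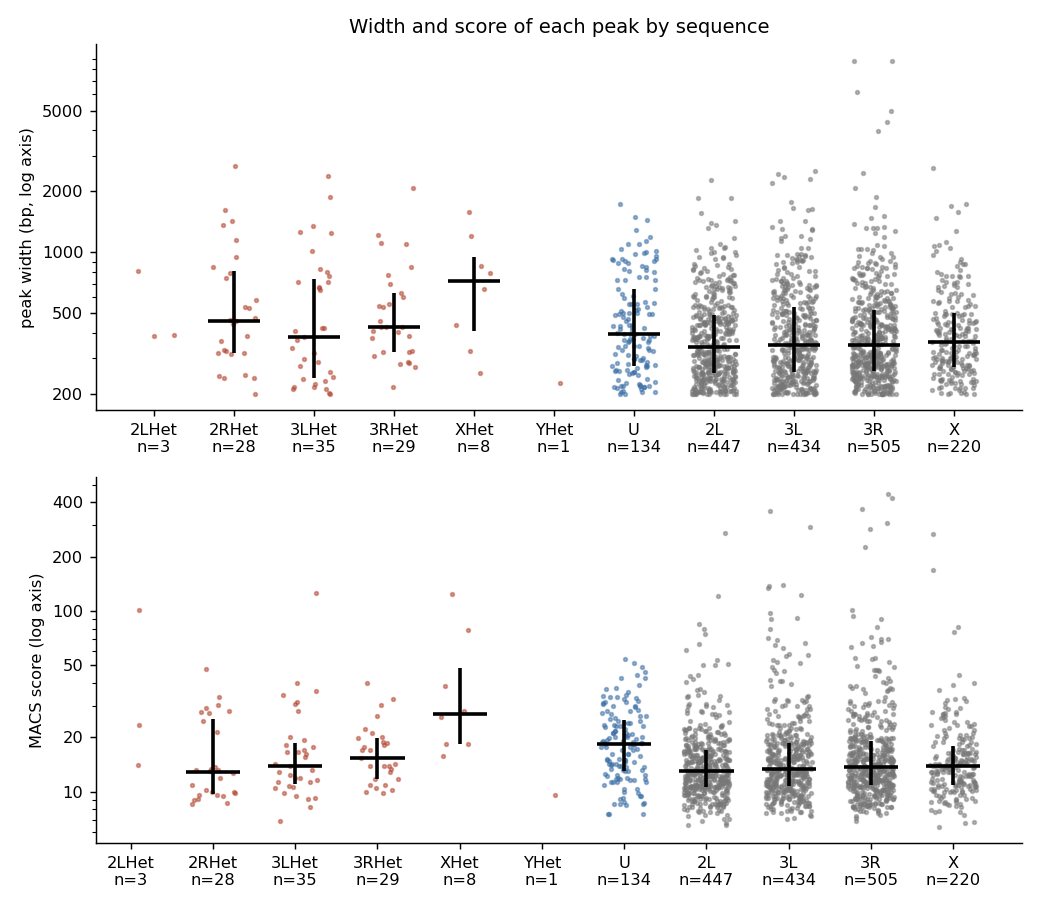
Width in bp (upper panel) and MACS score (lower panel) of each peak, both on log axes, for the Het scaffolds, U and the arms 2L, 3L, 3R and X. Points are peaks, horizontal lines medians and vertical lines the interquartile range, drawn where a sequence has more than 5 peaks. The median of U in the lower panel, 18.48, lies above those of 2L, 3L, 3R and X, while scores over 200 are seen on the arms alone.

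Taken pair by pair, a peak of the placed scaffolds was the wider in 61.3% of pairs with an arm peak and had the higher score in 55.7%. A peak of U was the wider in 56.8% of such pairs and had the higher score in 64.7%. For single scaffolds the shares for width were 63.5% on 2RHet, 54.5% on 3LHet, 64.5% on 3RHet and 74.7% on XHet. Those for score were 46.8, 52.5, 58.9 and 85.8% in turn. Peaks over 1 kb wide made up 17 of 104 on the placed scaffolds (16.3%) and 11 of 134 on U (8.21%). On the arms they made up 75 of 1606 (4.67%), and over the whole list 3.32%. The 3 members over 2 kb were all on placed scaffolds, at 2RHet 3123280 to 3125956 (2677 bp), 3LHet 1280142 to 1282523 (2382 bp) and 3RHet 1518795 to 1520878 (2084 bp). These 3 peaks were not the strongest, with scores of 33.42, 30.63 and 22.3.

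The upper 20% of scores over the whole list, which took in 20.2% of its peaks because of ties, held 53 of the 238 members (22.3%, exact 95% interval 17.1 to 28.1%). The members' share was therefore near that of the list as a whole. On the arms the share was 178 of 1606 (11.1%, 9.59 to 12.7%), below that of the list, which also counts the 2559 peaks outside both sets. The placed scaffolds contributed 22 of 104 (21.2%) and U 31 of 134 (23.1%). Within the upper 20%, however, a member had the higher score in only 41.2% of pairs with an arm peak. Scores over 50 made up 2.52% of the members and 3.55% of the arm peaks, both below the 6.25% of the whole list. For scores over 100 the shares were close, at 1.26% (3 of 238) and 1.06% (17 of 1606), with 1.29% over the whole list. No member scored above 126.08, while the arms, with many more peaks, reached 445.63 in a run of 13 peaks on 3R.

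The 10 members ranked highest by score were spread over 5 of the 7 sequences, and 3 of them exceeded a score of 100. These were 3LHet 618526 to 620410 (score 126.08, rank 32 of the 4403 peaks), XHet 196013 to 197596 (123.98, rank 33) and 2LHet 368084 to 368888 (101.71, rank 55). The fourth was XHet 203127 to 203916 with 78.83 (rank 97). Below them came U 5301167 to 5301993 (54.12, rank 245) and U 5290078 to 5290374 (51.65, rank 263), which left 232 members with a score of 50 or less. Scores recurred often: the 238 members had 149 distinct values, and 199 of them shared their score with another peak of the list. That share was 83.6%, as it was over the whole list. Ranks of peaks with close scores therefore carry little weight.

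Score and width went together, and width was next compared at like score. Across peaks the Spearman coefficient of score and width was 0.68 on the placed scaffolds (n = 104), 0.63 on U (n = 134) and 0.60 on the arms (n = 1606), given as a description, since peaks share libraries and depth. Among the scaffolds it was 0.76 for 2RHet (n = 28) and 0.76 for 3LHet (n = 35) but 0.26 for 3RHet (n = 29). The list was then divided at the quartiles of its scores, 12.0, 16.18 and 23.87. Above the highest of these cuts, 25 peaks of the placed scaffolds had a median width of 1103 bp (792 to 1342), against 685.5 bp (629 to 736) for 214 arm peaks and 757 bp (520 to 915) for 39 peaks of U. Their median scores were alike, at 31.22, 32.47 and 31.29. The placed peak was the wider in 70.1% of pairs with an arm peak of that class, and the peak of U in 47.3%. Below the lowest cut, the placed scaffolds (320 bp, n = 33) and the arms (266 bp, n = 587) had overlapping intervals, of 240 to 424 and 258 to 275 bp. In the middle classes the intervals also overlapped, at 359.5 bp (289 to 426) against 349 bp (325 to 369), and 542 bp (371 to 762) against 434.5 bp (410 to 460). Placed and arm peaks were thus apart in width only in the highest class. Against the arm peaks in the 1 Mb next to the centromere, intervals overlapped among strong peaks as well. In the upper 20% of scores the median was 1128 bp (792 to 1426) for placed peaks and 858 bp (628 to 1399) for 10 such arm peaks.

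**Figure D2:**
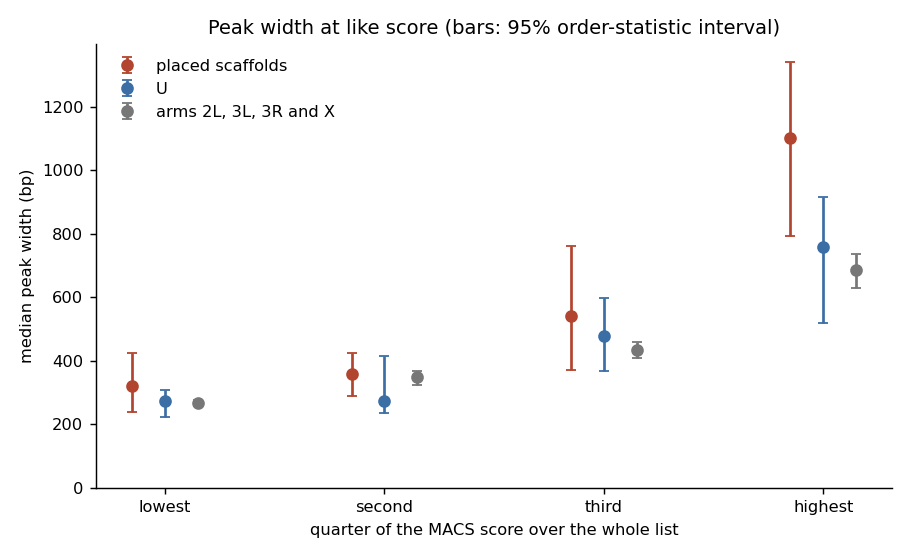
Median peak width in bp within the 4 score classes cut at the quartiles of the whole list, for the placed scaffolds, U and the arms 2L, 3L, 3R and X. Bars are 95% order-statistic intervals over peaks. In the highest class the placed scaffolds stand at 1103 bp, and their interval starts above the end of that of the arms, at 792 against 736 bp.

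Several strong members were narrow, and the 4 given here are examples picked after their values were seen. U 5290078 to 5290374 combined a score of 51.65 with 297 bp, U 6661023 to 6661352 a score of 48.97 with 330 bp, and U 9934667 to 9934995 a score of 37.39 with 329 bp. On 3RHet the peak 1103453 to 1103780 had 328 bp and a score of 30.29. Each of these 4 peaks was narrower than the median arm peak, although each score was above the upper quartile of the list.

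Spacing also differed in value between the placed scaffolds and U, but the intervals of their shares with a neighbour just met. 3RHet stood near U. On the arms, 50.6% of peaks (812 of 1606) had another peak within 5 kb, edge to edge. The share for all 238 members was close to this background at 52.9% (126 peaks, exact 95% interval 46.4 to 59.4%). It was made up of 63.5% on the placed scaffolds (66 of 104, 53.4 to 72.7%) and 44.8% on U (60 of 134, 36.2 to 53.6%). By scaffold the share was 20 of 28 on 2RHet (71.4%), 24 of 35 on 3LHet (68.6%) and 14 of 29 on 3RHet (48.3%). All 8 peaks of XHet had such a neighbour, and none of the 3 on 2LHet did. Without XHet the placed scaffolds stood at 60.4% (58 of 96, 49.9 to 70.3%). This interval overlaps that of U and that of the arms, the latter 48.1 to 53.0%. Over the whole list the share was 55.7%, within the interval of the placed scaffolds.

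Gaps of up to 1 kb made up 29 of 98 on the placed scaffolds (29.6%), 24 of 133 on U (18.0%) and 288 of 1602 on the arms (18.0%). Over the whole list the share was 14.2%. Gaps of up to 200 bp made up 15.3% on the placed scaffolds, 6.77% on U, 7.18% on the arms and 4.51% over the whole list. The shortest were 53 bp on XHet and 52 bp on U, where the arms began at 50 bp. Median gaps were 12.1 kb on the placed scaffolds (2.49 to 35.3), 40.8 kb on U (21.9 to 51.5) and 16.9 kb on the arms (14.8 to 20.5). The interval of the placed scaffolds contained that of the arms and overlapped that of U. The median over the whole list was 9.96 kb. 2RHet and 3LHet held 22 of the 29 short gaps of the placed scaffolds, 10 and 12 in turn, and 3RHet held 4. At 5 kb the shares of gaps were 43.9% on the placed scaffolds, 29.3% on U, 32.0% on the arms and 35.4% over the whole list. Joining peaks no more than 1 kb apart left 75 peaks on the placed scaffolds, of which 24 had a neighbour within 5 kb (32%, 21.7 to 43.8%), against 30.2% on the arms (398 of 1318) and 23.6% on U (26 of 110). The joined peaks of the placed scaffolds had a median width of 632 bp (404 to 805), those of U 425 bp (367 to 520) and those of the arms 374 bp (358 to 390). With a limit of 20 kb the shares were 77.9% on the placed scaffolds, 59.0% on U and 72.4% on the arms.

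Neighbours were then counted among strong peaks alone. In the upper 50% of scores, 30 of 47 placed peaks (63.8%, 48.5 to 77.3%) had a neighbour within 5 kb that was itself in the upper 50%, against 152 of 540 on the arms (28.1%, 24.4 to 32.1%). On U the number was 30 of 78 (38.5%, 27.7 to 50.2%). Without XHet the placed share was 23 of 40 (57.5%, 40.9 to 73.0%), and the same count was 5 of 9 on 2RHet, 10 of 15 on 3LHet and 8 of 14 on 3RHet. The placed interval did not overlap that of the arms at this cut, also without XHet, but overlapped that of the arm peaks in the 1 Mb next to the centromere (12 of 34, 19.7 to 53.5%). This cut left 45.2% of the placed peaks and 33.6% of the arm peaks, against 50.0% of the whole list. Leaving out more peaks lowers a share of neighbours by itself. The share with a strong neighbour was not computed for the whole list. The contrast therefore cannot be assigned to the placed scaffolds rather than to the arms. In the upper 20% of scores the placed share was 11 of 22 (50%, 28.2 to 71.8%), and 7 of 18 without XHet (38.9%, 17.3 to 64.3%). These intervals overlapped that of the arms, 40 of 178 (22.5%, 16.6 to 29.3%). By scaffold the counts were 5 of 7 on 2RHet, 2 of 7 on 3LHet and 0 of 3 on 3RHet, and U had 9 of 31. The intervals treat peaks as independent, though a peak and its neighbour are counted together, so they may be too narrow. No test of these differences could be made.

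**Figure D3:**
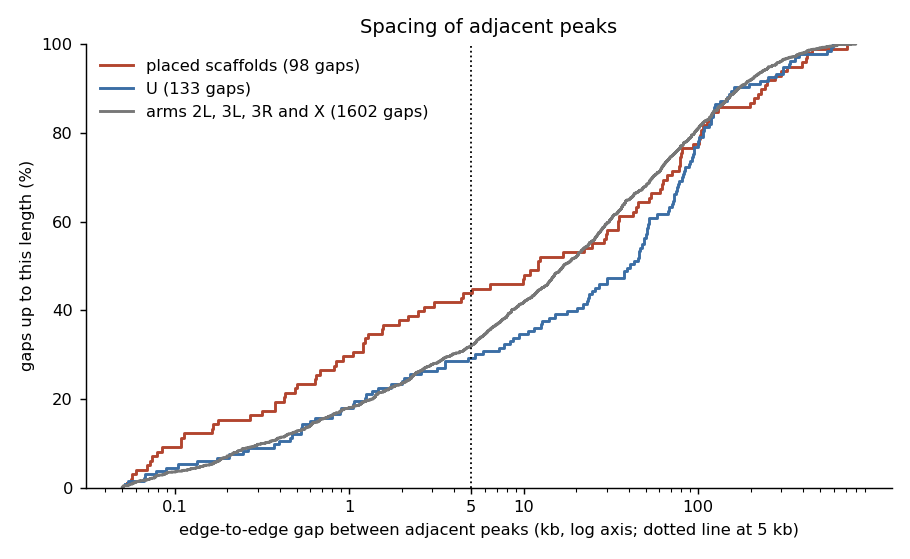
Cumulative share of edge-to-edge gaps between adjacent peaks, in percent, against gap length in kb on a log axis, for the placed scaffolds (98 gaps), U (133) and the arms 2L, 3L, 3R and X (1602). The dotted line marks 5 kb. At 1 kb the placed scaffolds have reached 29.6%, while U and the arms both stand at 18.0%.

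Per Mb between first and last peak, the members carried 14.0 peaks over 16.9 Mb, the placed scaffolds among them 14.7, and the arms 16.7 over 95.9 Mb. The range among the larger sequences was 11.2 on 2RHet, 13.5 on U, 13.9 on 3RHet and 16.0 on 3LHet, all above the 10.2 of X and below the 17.8 of 3L. The longest stretch without a peak took up more of the span of a scaffold than of an arm. Such a share rises by construction where a span is short and holds few gaps. The longest on 2RHet, 2298545 to 3009637, measured 711 kb and 28.3% of the span, and a further 615 kb lay before the first peak at 615316. On 3LHet the longest was 858086 to 1280141 (422 kb, 19.3%), on 3RHet 162434 to 577472 (415 kb, 19.9%) and on 2LHet 238856 to 368083 (129 kb, 55.2%). U had its longest at 4699626 to 5290077 (590 kb, 5.96%). The arms' longest stretches, of 536 to 801 kb, took up 2.20 to 3.55% of their much longer spans. In length, no stretch of a scaffold or of U exceeded the longest of the arms. Gaps over 100 kb numbered 22 of 98 on the placed scaffolds, 30 of 133 on U and 304 of 1602 on the arms. Over the whole list they numbered 445 of 4388.

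**Figure D4:**
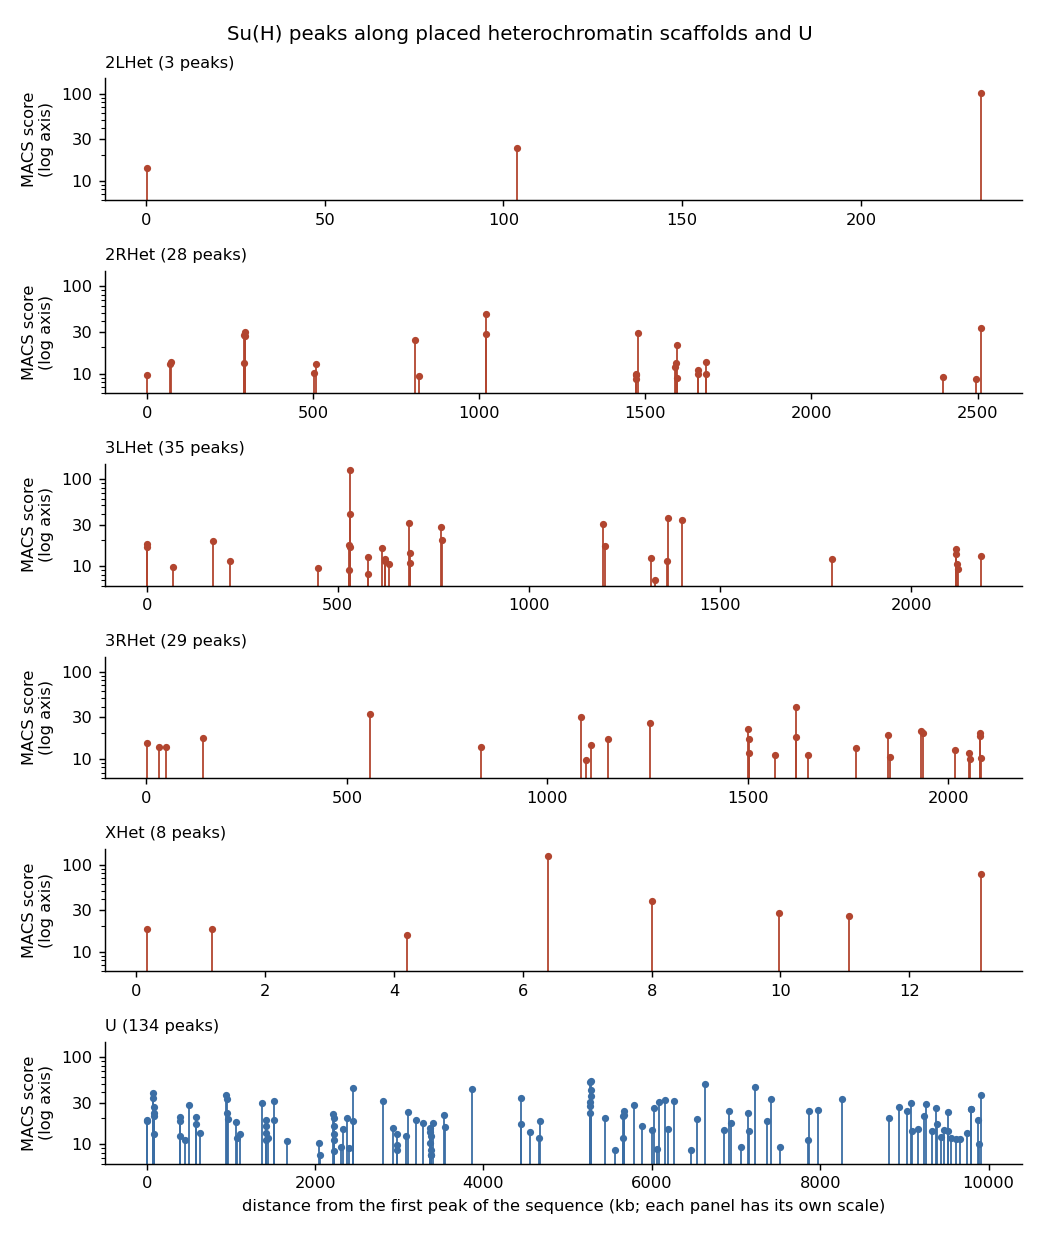
MACS score on a log axis for each peak, against the distance in kb of its centre from the first peak of the sequence, for 2LHet, 2RHet, 3LHet, 3RHet, XHet and U (YHet has 1 peak and is not drawn). Vertical lines only mark positions, and each panel has its own distance scale. Peaks of 2RHet and 3LHet stand in tight groups parted by empty stretches of up to 711 and 422 kb.

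Successive peaks no more than 5 kb apart were treated as 1 run. The members formed 44 runs, 23 on the placed scaffolds and 21 on U, and the arms 299. Pairs made up 28 of the 44 (63.6%) and 66.2% of the arm runs, while runs of 4 or more made up 11 of 44 (25%) and 53 of 299 on the arms (17.7%). Of these 11, 3 lay on 2RHet, 2 on 3LHet, 1 on XHet, 5 on U and none on 3RHet. Peaks covered a median 66.5% of the length of a run on the placed scaffolds, 54.6% on U and 42.0% on the arms. On 2RHet the median was 85.6%.

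XHet is the part of the X chromosome's heterochromatin placed in release 5, and its 8 peaks formed a single run from 190413 to 203916. No peak was listed in the 190412 bp before it. The scores, in order along the scaffold, were 18.35 (190413 to 190738), 18.35 (191378 to 191814), 15.71 (194482 to 194736), 123.98 (196013 to 197596), 38.68 (198096 to 198756), 28.18 (199962 to 200818), 25.84 (200872 to 202078) and 78.83 (203127 to 203916). The first 3 peaks were the weakest and narrowest, at 255 to 437 bp, and the 5 that followed were 661 to 1584 bp wide. Every one of the 8 scored above the arm median of 13.52, and 6 were wider than the arm median of 349 bp. The highest 2 scores supplied 58.3% of the summed score of 347.92. Peaks covered 6.12 of 13.5 kb (45.3%), with gaps of 53 to 2667 bp.

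Among the 343 runs on the placed scaffolds, U and the 4 arms, the XHet run had rank 3 by summed score and rank 6 by highest peak. Only 4 arm runs held as many peaks or more, of which the run with 13 peaks on 3R, 21821675 to 21867764, had a summed score of 2274.88. The remaining 3, with 8 or 9 peaks, had summed scores of 110.04 to 174.87 and no peak above 49.71. On the X arm, the 1 Mb of span nearest the centromere held 9 peaks with a median score of 12.62 and a highest score of 27.82. All 8 XHet peaks were above the former and 4 above the latter.

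On 3LHet the leading run lay from 615693 to 620410. Its 5 peaks covered 84.6% of 4.72 kb, with gaps of 56 to 490 bp. Scores were 9.1, 17.61, 16.64, 40.04 and 126.08 in order along the scaffold, so that the strongest peak, 618526 to 620410, was the last, at 1885 bp. Its summed score of 209.47 had rank 5 among the 343 runs. The other run of 4 on 3LHet, 2203997 to 2207894, was weak, with scores of 9.27 to 15.7. Further strong peaks of this scaffold were 1450110 to 1451358 (36.01), 1486293 to 1487634 (34.38) and 773108 to 773822 (31.22), the second of which stood alone.

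On 2RHet 3 runs had 4 peaks each. In the run 908065 to 911707 they covered 91.2% of 3.64 kb with gaps of 60 to 177 bp, and 3 of them had scores between 27.3 and 30.2. The run 2086924 to 2093230 paired 3 weak peaks (8.74 to 9.83) with 1 of 29.08, and 2205424 to 2211819 had scores from 8.98 to 21.43. The strongest peak of the scaffold, 1636085 to 1637510 (47.93, 1426 bp), lay 378 bp from 1634091 to 1635706 (28.18, 1616 bp). The widest of all members, 3123280 to 3125956, was the last of 2RHet and stood alone.

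3RHet was the placed scaffold on which peaks lay most singly, apart from those with 3 peaks or fewer. It had 15 peaks alone among 29, and its 6 runs held 2 or 3 peaks each. Its highest scores were 39.92 (1641160 to 1642262), 32.78 (577473 to 578695), 30.29 (1103453 to 1103780), 26.22 (1275156 to 1275582) and 22.3 (1518795 to 1520878). Only 3 of its 29 peaks (10.3%) were in the upper 20% of all scores, against 7 of 28 on 2RHet (25%) and 7 of 35 on 3LHet. The exact intervals of these shares, 2.19 to 27.4%, 10.7 to 44.9% and 8.44 to 36.9%, overlapped widely.

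2LHet had 3 peaks, all more than 100 kb apart. They were 134966 to 135353 (score 14.08, 388 bp), 238464 to 238855 (23.59, 392 bp) and 368084 to 368888 (101.71, 805 bp). The single peak of YHet, 72753 to 72978, was weak and narrow, with a score of 9.65 and 226 bp.

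On U the most populous run, 3394976 to 3408498, had 7 peaks over 13.5 kb, all of them weak (7.54 to 15.25). The run 106829 to 113116 was denser and stronger. Its 6 peaks, scored 38.92, 34.07, 21.3, 27.15, 13.29 and 22.88, covered 86.4% of 6.29 kb and included the widest peak of U, 108370 to 110104 (1735 bp). The run 2247221 to 2253412 held 5 peaks scored 8.44 to 20.07, and 1443382 to 1449801 held 4 scored 11.4 to 19.1.

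The 2 highest scores of U lay in neighbouring runs, 7.71 kb apart. The first, 5290078 to 5293454, had 4 peaks scored 51.65, 23.02, 30.54 and 27.88, and the second had 3, scored 54.12, 35.54 and 42.7. All 7 thus exceeded the U median of 18.48, within 15.6 kb. Their widths were moderate, from 277 to 923 bp. Away from this group, the leading peaks of U were 6661023 to 6661352 (48.97), 7251274 to 7252378 (45.76), 2473136 to 2474632 (44.16) and 3896440 to 3897451 (42.82). Of these 4, only the one at 2473136 had a neighbour within 5 kb, at 1732 bp. The peaks 9934667 to 9934995 (37.39) and 970975 to 971501 (37.0) completed the 10 highest.

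**Figure D5:**
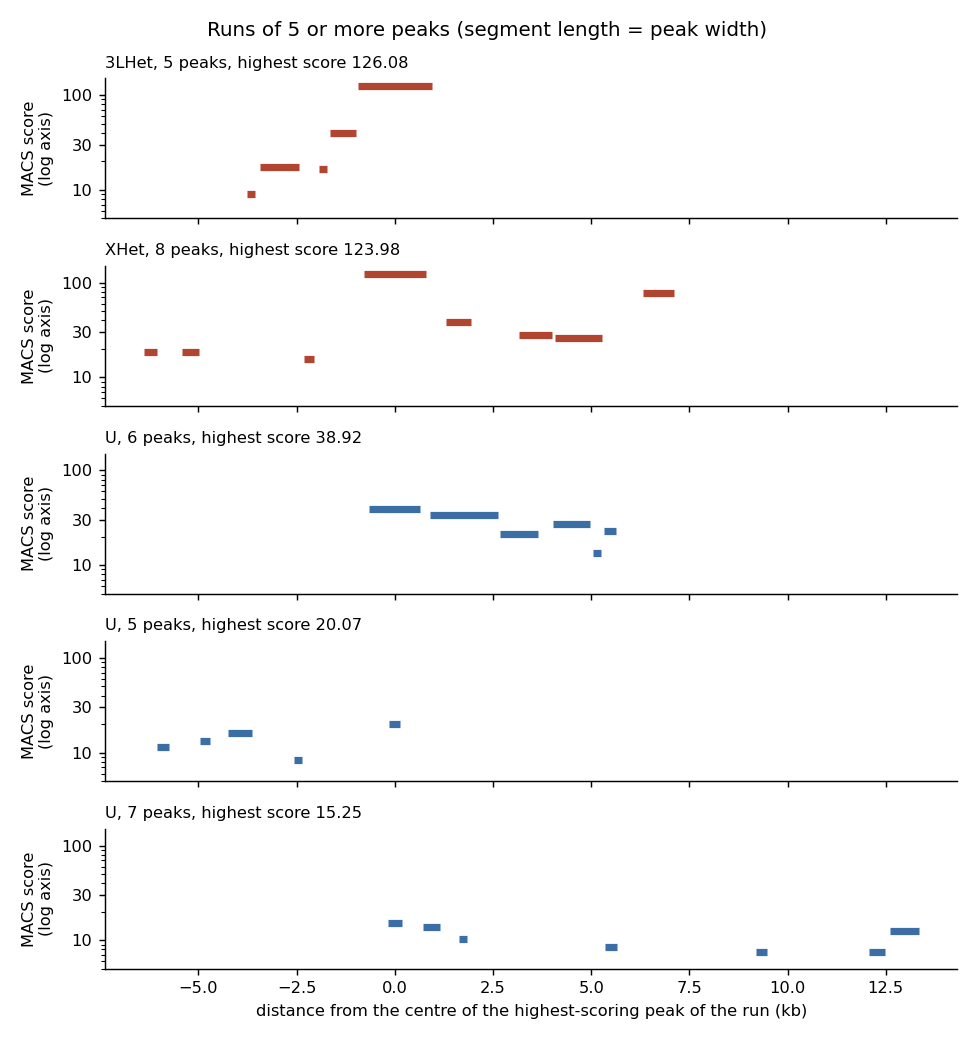
The 5 runs of 5 or more peaks on the placed scaffolds and U, with MACS score (log axis) against distance in kb from the centre of the run's highest-scoring peak. Each segment is a peak, as long as the peak is wide. The XHet run spreads 8 peaks over 13.5 kb, the 3LHet run ends in its strongest peak of 126.08, and the 7 peaks of the last U run all lie at or below 15.25.

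Grouping on U differed along its order. In the first 5 Mb, 41 of 71 peaks (57.7%) had a neighbour within 5 kb, and in the rest 19 of 63 (30.2%). From 6 to 7 Mb all 13 peaks stood alone. Median scores went the other way, at 17.07 and 21.16. This division was made after the positions had been seen, and the order of scaffolds within U is not an order in the genome.

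Peaks with a neighbour and peaks alone differed little in score on U and on the arms. The medians were 18.85 (n = 60) and 17.61 (n = 74) on U, and 13.91 (n = 812) and 13.17 (n = 794) on the arms. On the placed scaffolds they were 16.88 (n = 66) and 13.38 (n = 38). In width the placed scaffolds had medians of 469 and 390.5 bp, U 437.5 and 376 bp, and the arms 386 and 319.5 bp. The peak with a neighbour was thus the wider kind in all 3 sets by the median, and 13 of the 17 placed peaks over 1 kb had one.

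The arm peaks closest in position to the placed scaffolds, in the 1 Mb of span next to the centromere, were compared last. These 76 peaks had a median width of 363 bp (302 to 431), a median score of 15.08 (13.52 to 18.35) and 41 with a neighbour within 5 kb (53.9%, 42.1 to 65.5%). Each interval overlapped that of the placed scaffolds and also that of U. In pairs with them, a placed peak was the wider in 57.6% and had the higher score in 49.4%, whereas a peak of U was the wider in 53.2% and the higher in 59.0%. Peaks over 1 kb made up 10.5% of this set and gaps of up to 1 kb 28%, both closer to the placed scaffolds (16.3 and 29.6%) than the arms as a whole (4.67 and 18.0%). The ends differed among themselves: 17 of 23 peaks had a neighbour on 2L (73.9%), 7 of 11 on 3L, 5 of 9 on X and 12 of 33 on 3R (36.4%).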

How the data were processed

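ChIP-seq libraries (3 Su(H) ChIP, 3 input DNA) were represented by a single deposited peak list. Positions are on FlyBase release 5 and MACS is named as source, per the file headers. BDGP5 is the build in the submitters' processing notes, which also list BWA, MACS2 and CASAVA (1.7.0.2, 1.7.0.3), with no role for each. The authors deposited 1 score per peak, whose scale is not stated. Its use was limited to describing, ranking and filtering within this list. Not given in the sources used here are the calling threshold, the pooling of libraries, the treatment of reads that match several places and the depth. Each could affect widths, scores and splitting of peaks, which was not tested. The deposited start and end positions (other values) gave width and edge-to-edge gap.

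Peaks were assigned by sequence name. Spans run from first to last peak, as no sequence lengths of release 5 were used. YHet, with 1 peak, has no span. Tied pairs counted equally to both sides. Medians have order-statistic intervals and shares exact binomial ones, both at 95% and for counting error only. The only gene table was of Release 6, so no gene and no sequence was attached to a peak. Named were every peak of scaffolds with up to 10 peaks, the 5 highest-scoring of other placed scaffolds, the 10 highest of U, the widest peaks, runs of 4 or more peaks and the longest gaps. Narrow strong peaks were picked after their values were seen. Members, lists and rules were chosen with earlier results of these data known. Run chaining, pair shares and median intervals were tested on simulated data. Calculations used Python 3.11.15, numpy 2.4.6, pandas 2.3.3 and scipy 1.17.1.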

Additional observations from a re-analysis of the deposited data

How the results depend on the processing

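Members were wider than arm peaks in more than 50% of pairs under all 14 alternatives of peak choice (55.1 to 61.3%), and had the higher score in 13 of 14 (41.2 to 64.7%), the exception being the upper 20% of scores. Many of the 14 left out only a small part of the members and kept all arm peaks, so their values could move little. The lowest share for width, 55.1%, was that against the arm peaks next to the centromere. Of 77 recomputed values 35 stayed within the interval of the value as reported, or within 1.5 times of a count or density. Leaving out XHet, the 7-peak group of U, both, or any single placed scaffold moved no value of the members outside its interval. These alternatives, other than XHet alone, were chosen after seeing the data.
Keeping the upper 50% of scores gave members and arms shares with a neighbour of 48.0 and 28.1%, widths of 657 and 529 bp, scores of 24.15 and 21.05, 8.01 and 5.70 peaks per Mb, gaps of 81.8 and 76.7 kb, and 23 and 59 runs. For the upper 20% these were 37.7 and 22.5%, 851 and 713 bp, 33.15 and 36.94, 3.72 and 1.92 per Mb, 167.6 and 295.0 kb, and 7 and 14 runs. Fewer peaks lower densities and runs by construction. Joining gaps of up to 1 kb gave 27.0 and 30.2%, 471 and 374 bp, gaps of 51.8 and 29.2 kb, 21 and 173 runs, and an arm score of 14.14. With neighbours within 2 kb the arm share was 39.4% (members 47.1%), and within 20 kb 72.4% (members 67.2%), so that the order of members and arms turned with the distance and with joining. The cause was not tested. Placed scaffolds alone had a share of 63.5% and a median score of 14.22, U alone 44.8% and 18.48. The arm ends next to the centromere had 53.9%, 363 bp and 15.08. No library could be left out in a list without values for each. No paired analysis was possible because replicates are not told apart in this list. With depth unknown, a stretch without peaks cannot be read as unbound.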
